A study of Mus musculus with 24 samples.

Results

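Pluripotency network genes are the transcription factors, signals, RNA-binding proteins and chromatin genes that hold a cell in the state of the early embryo. A list of 36 such genes was followed across 24 mouse microarrays. Members were found by gene symbol, and each was read from the probe set that was brightest on average. All 36 were measured, out of 18193 genes on the arrays. The arrays form 8 groups of 3. P19 cells, a mouse embryonal carcinoma line that grows as undifferentiated pluripotent cells, were compared with mouse embryonic fibroblasts (MEFs) from Myod-/-/Myf5-/- embryos. All fibroblast groups therefore lack both of those muscle genes. Each cell was left untransduced or was given a lentivirus carrying MyoD, which starts the skeletal muscle programme, or NeuroD2, a related basic helix-loop-helix factor of neurons.

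Batch 1 contained both cells, each untransduced and with MyoD. The NeuroD2 groups came with their own untransduced controls, MEFs in batch 2 and P19 cells in batch 3. Virus was added with 8 µg/ml polybrene, the medium was renewed at 24 hours, and the P19 cells were harvested at 72 hours. MEFs with MyoD went into a low-serum differentiation medium at 48 hours and were harvested 36 to 40 hours later, so they differ from their controls in medium as well as in virus. No control carried an empty virus, and no source used here states when the MEFs labelled NeuroD2 were harvested. Nothing in the labels ties a replicate to a culture of its own, so p-values speak only to the spread between these samples, which may be technical.

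In the embryo, Pou5f1 (Oct4), Sox2 and Nanog bind together at the regulatory regions of their own and each other's genes. Around that core, Esrrb, Klf2, Klf4, Klf5, Tfcp2l1, Tbx3, Nr0b1, Prdm14 and Zfp42 mark the naive state of the preimplantation epiblast. Otx2, Pou3f1, Foxd3, Zic2 and Fgf5 mark the later, primed epiblast. Several members also work outside pluripotent cells: Sox2 in neural progenitors, and Klf2, Klf4 and Klf5 in many epithelial, vascular and connective tissue cells.

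The values are deposited log2 signals, on which a difference of 1 is a 2-fold change. Weak signals on this scale are compressed toward background, so differences of weak members can be understated, and levels of different probe sets cannot be compared with each other. Replicate 2 of the P19 controls of batch 1 stood apart from the other arrays. Its upper quartile was 7.63, against 8.23 to 8.40 in the other 23 arrays, and its mean correlation with its own group was 0.919 (0.957 to 0.998 elsewhere). Counts of called members are therefore also given from a fit of the other 23 arrays. Of 10 muscle markers, 9 rose in P19 cells with MyoD (8 in the fit of 23 arrays) and all 10 in MEFs with MyoD, and all 12 neuron markers rose in P19 cells with NeuroD2. In MEFs labelled NeuroD2 only Tubb3 of the 12 neuron markers rose. The Myod1 probe set rose with MyoD, by 3.94 in P19 cells. The Neurod2 probe set did not pass with NeuroD2, with differences of 0.21 in P19 cells and 0.21 in MEFs and overlapping groups, and whether it reads the viral transcript was not tested. All 12 fibroblast markers were higher in MEF controls than in P19 controls of batch 1.

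The promoters of 5 members are shown: the core factors Pou5f1, Sox2 and Nanog, which kept P19 cells apart from MEFs, and Klf2 and Nr0b1. Klf2 and Nr0b1 fell in P19 cells with NeuroD2 against batch 3 controls, but not against batch 1 controls (differences of 0.02 and 0.14). Each line gives the 250 bases before the most upstream start site in the RefSeq table (build GRCm38.p6, plus strand), 5′ to 3′. Capitals mark matches on either strand to ATGCAAA (core of the octamer bound by Pou5f1), CATTGT (bound by Sox factors), GGGGCGG (bound by Klf and Sp factors), AGGTCA (a core motif of nuclear receptors), or an E-box of basic helix-loop-helix factors, spelled CAGCTG or CAGATG or CAGGTG.
Pou5f1, chr17:35505782-35506031: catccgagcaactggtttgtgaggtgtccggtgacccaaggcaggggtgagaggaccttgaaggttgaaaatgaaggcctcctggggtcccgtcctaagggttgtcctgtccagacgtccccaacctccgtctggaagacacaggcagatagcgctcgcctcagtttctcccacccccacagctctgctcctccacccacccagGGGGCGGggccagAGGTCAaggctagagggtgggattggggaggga
Nanog, chr6:122707239-122707488: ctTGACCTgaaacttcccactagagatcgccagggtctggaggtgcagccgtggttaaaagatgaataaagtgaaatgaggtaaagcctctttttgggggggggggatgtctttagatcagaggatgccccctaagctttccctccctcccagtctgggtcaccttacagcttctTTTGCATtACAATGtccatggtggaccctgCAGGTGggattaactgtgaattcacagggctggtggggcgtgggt
Sox2, chr3:34649745-34649994: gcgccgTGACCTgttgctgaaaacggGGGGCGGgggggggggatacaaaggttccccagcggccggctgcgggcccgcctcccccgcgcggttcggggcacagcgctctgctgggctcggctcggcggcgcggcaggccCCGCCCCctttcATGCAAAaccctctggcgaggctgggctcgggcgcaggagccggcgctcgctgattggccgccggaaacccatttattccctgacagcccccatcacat
Klf2, chr8:72318812-72319061: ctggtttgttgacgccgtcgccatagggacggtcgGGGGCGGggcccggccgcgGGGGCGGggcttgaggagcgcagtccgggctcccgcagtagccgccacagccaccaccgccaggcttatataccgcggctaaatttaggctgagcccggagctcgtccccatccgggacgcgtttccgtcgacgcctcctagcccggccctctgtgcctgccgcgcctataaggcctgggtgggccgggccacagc
Nr0b1, chrX:86191525-86191774: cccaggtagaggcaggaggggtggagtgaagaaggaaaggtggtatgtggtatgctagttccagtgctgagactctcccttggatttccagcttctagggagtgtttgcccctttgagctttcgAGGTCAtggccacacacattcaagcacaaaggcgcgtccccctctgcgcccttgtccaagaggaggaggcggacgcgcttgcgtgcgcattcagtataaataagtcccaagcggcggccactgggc
The Nanog stretch holds an octamer core directly followed by a Sox match, the paired element known from this promoter, and 1 E-box CAGGTG. The Sox2 stretch holds an octamer core, and the Pou5f1 stretch a Klf and Sp match followed by a nuclear receptor motif. None of the 7 motifs overlap one another in these 5 stretches.

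Of the 36 members, 24 had a window among those searched (33 windows, from 250 bases before to 50 after a start site). A chromosome was left out of the search for members but not out of the count over all windows. ATGCAAA was in 4 of the 33 member windows (of Nanog, Sox2 and Zfp42) and in 4.63% of all 32851 windows. CATTGT was in 5 (of Esrrb, Lin28a, Nanog and Pou5f1; 12.6% of all windows), and GGGGCGG in 10 (23.2% of all windows). AGGTCA was in 4 (16.3%). The E-box CAGCTG was in 5 member windows (16.3%), CAGATG in 3 (17.2%) and CAGGTG in 6 (20.2%). A match is a string of letters and not a measured site, and no binding was measured here.

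Most of the network was far higher in P19 cells than in fibroblasts, with or without a factor. For 23 of the 36 members, the lowest of the 12 P19 arrays lay above the highest of the 12 MEF arrays, an order found for 10.6% of all genes. For 2 members, Klf4 and Tbx3, every MEF array lay above every P19 array (11.1% of all genes), and the other 11 overlapped. The Pou5f1 signal ran from 12.98 to 13.81 in P19 arrays (median 13.40) and from 4.30 to 5.10 in MEF arrays (median 4.50). Sox2 ran from 10.76 to 12.45 in P19 arrays and from 3.52 to 4.22 in MEF arrays. Nanog had a wider spread in P19 cells, from 7.32 to 10.65, and lay between 3.70 and 4.38 in MEFs. The lowest P19 value of each of these 3 core factors came from the array that stood apart.

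Among the RNA-binding members, Lin28a (a blocker of let-7 maturation) ran from 12.41 to 13.10 in P19 arrays and from 4.003 to 4.67 in MEF arrays. L1td1 lay between 10.88 and 12.16 in P19 arrays and between 4.47 and 5.14 in MEF arrays. Trim71, a ligase and repressor of mRNAs, kept the narrowest band of the 3 in P19 cells, from 10.14 to 10.69, and ran from 4.72 to 5.41 in MEFs. The secreted and surface signals Tdgf1 (Cripto, a co-receptor of Nodal) and Gdf3 (a ligand of the same family) showed the same order, with P19 ranges of 10.07 to 12.23 and 10.35 to 11.59. Fgf4, an epiblast growth factor, did not: its ranges were 5.96 to 7.51 in P19 arrays and 6.11 to 6.73 in MEF arrays on the probe set used.

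The 9 naive-state members were uneven in P19 cells. Nr0b1 lay between 6.58 and 9.42 in P19 arrays, above every MEF array (3.94 to 4.61), and Klf5 lay between 7.78 and 9.84. Zfp42 (Rex1) lay between 3.81 and 5.03 in P19 arrays, overlapping its MEF range of 3.79 to 4.27. Prdm14 lay between 3.83 and 4.68, against 3.85 to 4.06 in MEFs. Esrrb, an orphan nuclear receptor, lay between 6.08 and 7.08, against 6.18 to 6.51. The P19 signals of these 3 were close to those of fibroblasts. All 5 later epiblast members had every P19 array above every MEF array, from Otx2, at 10.32 to 11.60 against 3.98 to 4.79, to the weaker Zic2, at 5.18 to 6.73 against 4.03 to 4.62. In all, 9 members had every group mean at or below 7.03, the median over all genes and arrays: Esrrb, Zfp42, Tfcp2l1, Prdm14, Zic2, Dppa3, Dppa5a, Fgf4 and Lin28b.

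**Figure D1:**
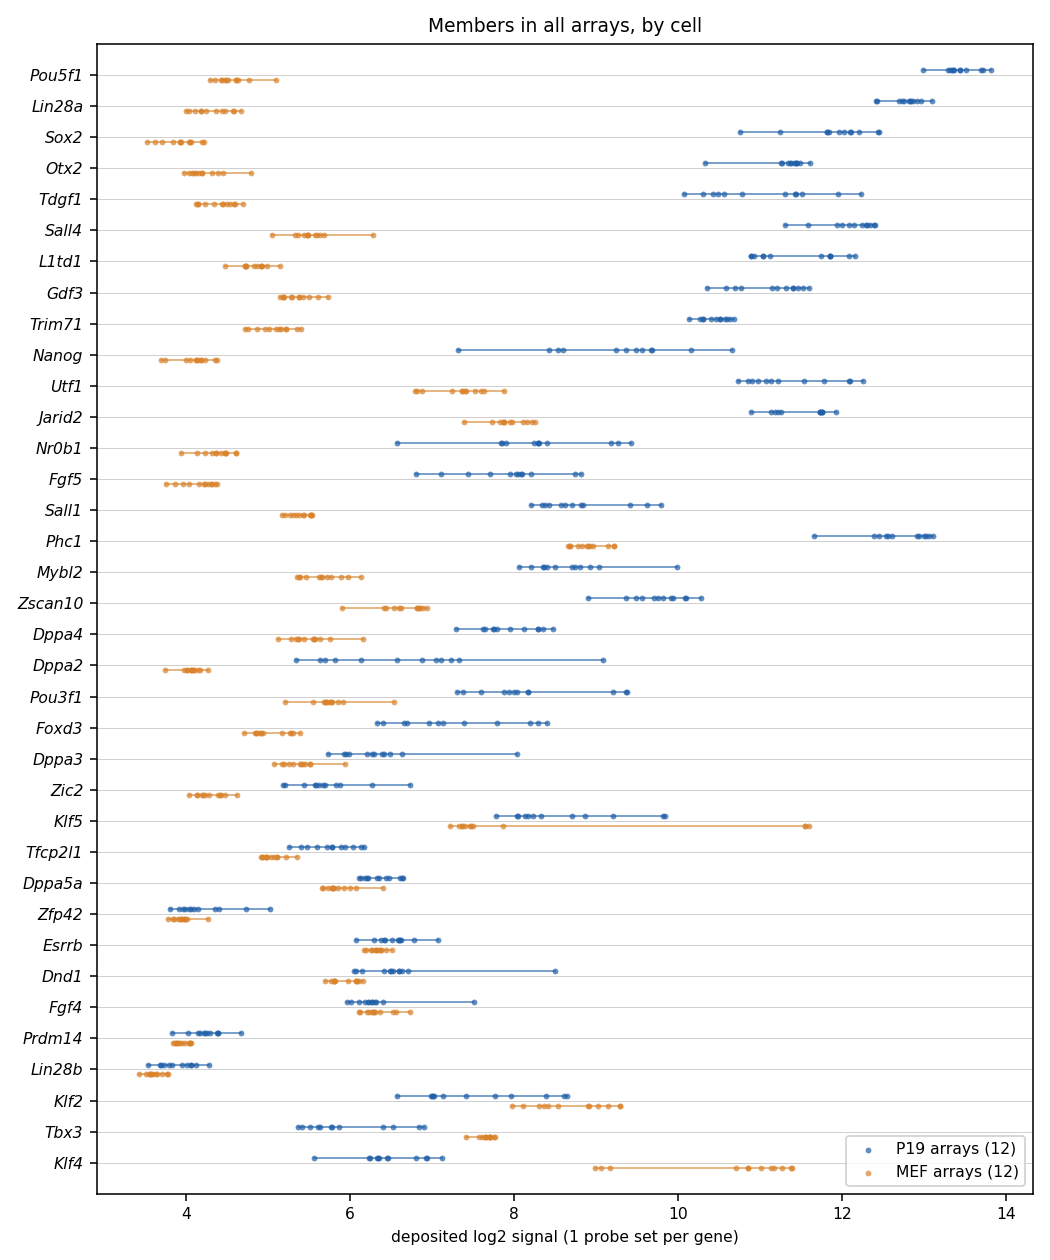
Deposited log2 signal (horizontal axis) of each of the 36 members in the 12 P19 arrays (blue) and 12 MEF arrays (orange), 1 point per array and a line from lowest to highest. Members are ordered by the difference between the batch 1 controls; Klf4 and Tbx3 are the 2 members with all MEF arrays above all P19 arrays, and the Klf5 line of MEFs is stretched by 3 arrays above 11.5.

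The untransduced controls of batch 1 give the test of this difference. With limma across all genes, 30 of 36 members were lower in MEF than in P19 controls (26.9% of all genes were), and 3 were higher (24.8% of all genes). The members' median difference was -2.72, against -0.12 over all genes. All 3 core factors, all 5 later epiblast factors, all 5 developmental pluripotency associated and chromatin genes, all 3 zinc finger factors and all 3 cell cycle and Polycomb genes were lower. So were 2 of 3 signals and 3 of 5 RNA-binding genes. Utf1, a chromatin protein of pluripotent cells, differed by -3.88 on the log2 scale (SE 0.20), and Mybl2, a driver of cell cycle genes, by -2.95 (SE 0.26). Jarid2 and Phc1, which belong to the Polycomb repressor complexes, differed by -3.56 and -2.97, from control means of 11.45 and 12.17.

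The 9 naive-state factors were the divided group, with 6 lower and 3 higher in MEFs. Klf4 was 6.23, 5.57 and 6.35 in P19 controls and 11.26, 11.37 and 11.38 in MEF controls, a difference of 5.29 (SE 0.19, adjusted p = 1.89e-15). Tbx3, a T-box factor also used in limb and mammary development, was 5.42, 5.36 and 5.52 against 7.64, 7.61 and 7.70 (difference 2.22, adjusted p = 1.28e-10). Klf2 was 7.03, 7.96 and 7.13 against 8.92, 8.90 and 9.02 (difference 1.57, adjusted p = 1.17e-06). None of these 3 had overlapping groups. The 3 members that did not pass were Dnd1, Fgf4 and Lin28b, with differences of -0.57, -0.50 and -0.25. For Fgf4 this depends on the probe set, since 2 others were called lower (-1.11 and -0.85) and the mean of all its probe sets differed by -0.65 (adjusted p = 5.71e-05). Dnd1 passed without batch 3 control replicate 1 (adjusted p = 0.000132), an array that enters only the estimate of the spread. In the fit of 23 arrays, 31 members were lower (31.4% of all genes) and 3 were higher (24.1%), and Lin28b was the member added. Prdm14, with a difference of -0.33 and an adjusted p of 0.0434, was the least secure call. It was lost under 18 of 31 alternatives.

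In P19 cells with NeuroD2 the core factors stayed near the level of their batch 3 controls, while part of the naive-state and signalling genes was lower. Of the 36 members, 8 fell (3.24% of all genes fell) and 2 rose (5.10% of all genes rose), by limma with Benjamini-Hochberg adjustment over all genes. The median difference of the members was -0.31, against -0.05 over all genes, and 29 of the 36 differences were negative. The falls were Klf2, Klf5, Nr0b1, Foxd3, Gdf3, Zscan10, Dppa2 and Dnd1, and the rises were Pou3f1 and Tbx3. In bulk RNA, fewer cells that carry a transcript and less of it per cell cannot be told apart. All 12 neuron markers rose in the same samples, with a summed log2 level of 13.84 to 14.42 against 11.51 to 12.37 in the controls, and their part in the members' falls was not tested.

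Pou5f1 was 13.81, 13.69 and 13.72 in the batch 3 controls and 13.32, 13.35 and 13.44 with NeuroD2. The groups did not overlap, but the difference of -0.37 (SE 0.16) did not pass (adjusted p = 0.209). Nanog was 10.16, 9.48 and 9.67 in controls and 10.65, 9.68 and 9.56 with NeuroD2. Its groups overlapped, and replicate 1 was the highest of both. Sox2 was 11.25, 12.45 and 12.21 in controls and 11.81, 11.81 and 11.84 with NeuroD2. Control replicate 1 lay below all NeuroD2 arrays and the other two lay above them.

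Klf5, a zinc finger factor of the naive network, was 9.20, 9.82 and 9.84 in controls and 8.17, 8.23 and 8.33 with NeuroD2. Every NeuroD2 array lay below every control array, and the mean fell by 1.38 (SE 0.20, 2.60-fold, adjusted p = 7.43e-05). This rests on 1 probe set, since the other 2 Klf5 probe sets differed by -0.23 and 0.01 and did not pass. Klf2, its relative, was 8.39, 8.61 and 8.65 in controls and 6.997, 7.77 and 7.42 with NeuroD2. It fell by 1.16 (SE 0.20, adjusted p = 0.000507), with no overlap. Klf4 was 6.73 ± 0.24 (SD, n = 3) in controls and 6.80 ± 0.41 with NeuroD2, so 2 of the 3 Klf members fell and the difference of Klf4 did not pass.

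Nr0b1 (Dax1), an orphan nuclear receptor that binds Pou5f1 protein, had groups that lay far apart. Its signal was 9.18, 9.27 and 9.42 in controls and 7.90, 7.84 and 7.85 with NeuroD2. It fell by 1.43 (SE 0.28, 2.69-fold, adjusted p = 0.00195). Tbx3 moved the other way, from 6.41, 5.77 and 5.63 in controls to 6.52, 6.90 and 6.84 with NeuroD2. The rise was 0.82 (SE 0.15, adjusted p = 0.00114), and control replicate 1 came within 0.11 of the lowest NeuroD2 array. A second Tbx3 probe set rose by 1.23, and its 3 others differed by -0.09 to 0.25 and did not pass. The remaining naive-state members, Esrrb, Zfp42, Tfcp2l1 and Prdm14, differed by -0.31 to -0.07 and did not pass on the probe sets used.

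The later epiblast factors split. Pou3f1 (Oct6), a POU factor of the primed epiblast and of neural tissue, was 7.59, 8.00 and 7.88 in controls and 9.20, 9.38 and 9.37 with NeuroD2. It rose by 1.49 (SE 0.22, 2.81-fold, adjusted p = 7.75e-05), and its other probe set rose by 1.54. Foxd3, a forkhead repressor that also marks neural crest, was 8.20, 8.40 and 8.29 in controls and 7.79, 7.13 and 7.39 with NeuroD2. It fell by 0.86 (SE 0.19, adjusted p = 0.00427). Otx2 was 11.45 ± 0.03 in controls and 11.44 ± 0.14 with NeuroD2 (SD, n = 3 each). Zic2 and the growth factor Fgf5 differed by -0.14 and -0.42 and did not pass.

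Beside Pou3f1, markers of neural progenitors rose in 4 of 10 cases, among them Pax6 by 3.25 and Fabp7 by 2.82. The summed log2 level of that list was 12.29 to 12.48 with NeuroD2 and 11.90 to 12.14 in controls. Early mesoderm and endoderm markers had 0 calls among 9 with limma, and their summed levels overlapped, at 10.50 to 11.46 with NeuroD2 and 10.73 to 10.95 in controls. Of the 6 surface and epithelial genes listed for P19 cells, Epcam fell by 1.04 and the other 5 did not pass. How these lists bear on the members was not tested.

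Among the signals, Gdf3 was 11.31, 11.40 and 11.59 in controls and 10.77, 10.35 and 10.59 with NeuroD2. It fell by 0.86 (SE 0.18, adjusted p = 0.00352), its groups did not overlap, and its other probe set fell by 1.10. Tdgf1 was 12.23, 11.42 and 11.50 in controls and 11.95, 10.43 and 10.77 with NeuroD2, which overlapped. Its difference of -0.67 (SE 0.32) did not pass. Zscan10, a zinc finger partner of Pou5f1 and Sox2, was 10.28, 10.08 and 10.10 in controls and 8.90, 9.48 and 9.56 with NeuroD2. It fell by 0.84 (adjusted p = 0.0112), but by 0.63 without NeuroD2 replicate 1, which did not pass (adjusted p = 0.0797). Its relatives Sall4 and Sall1 differed by 0.15 and -0.35.

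Of the 8 falls, 3 lost their call when a single array was left out: Zscan10, Dppa2 and Dnd1. Dppa2, a DNA-binding protein of early embryo and germ line, was 9.09, 7.33 and 7.24 in controls and 7.05, 5.70 and 6.58 with NeuroD2. The fall of 1.44 had an adjusted p of 0.038, and without control replicate 1 the difference was -0.84 (adjusted p = 0.251). Without NeuroD2 replicate 2 it was -1.07 (adjusted p = 0.242), and without NeuroD2 replicate 3 it was -1.51 (adjusted p = 0.0799). Its other probe set differed by -0.29 and did not pass. Dnd1, an RNA-binding protein of germ cells, was 8.50, 6.42 and 6.60 in controls and 6.05, 6.15 and 6.08 with NeuroD2. Control replicate 1 alone lay above 6.60. The fall of 1.08 had an adjusted p of 0.0362, and 0.0909 to 0.0992 when any 1 NeuroD2 array was left out. Without control replicate 1 the Dnd1 difference was only -0.42, though the call was kept. The other 3 members of the developmental pluripotency associated group named Dppa differed by -0.47 to -0.27, and Utf1 by 0.43, and did not pass. The RNA-binding members Lin28a, L1td1 and Trim71 differed by -0.32, -0.52 and -0.20, with no call on the probe sets used.

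Replicate 1 of batch 3 lay apart for some members, and how often this held over all genes was not counted. Nanog, Zic2, Fgf5, Dppa2, Tdgf1 and Mybl2 were the 6 members whose replicate 1 lay more than 0.5 above the mean of replicates 2 and 3 in both the control and the NeuroD2 group. Others departed in the controls only, as did Dnd1 (by 1.99, against -0.06 with NeuroD2) and Sox2 (by -1.08, against -0.01). For Mybl2 the values were 9.98, 8.93 and 8.74 in controls and 9.04, 8.20 and 8.35 with NeuroD2. Its difference of -0.69 did not pass with all arrays (Benjamini-Hochberg value 0.13). In the fit of 23 arrays, 11 members fell (11.2% of all genes) and 2 rose (10.9%) with NeuroD2, and the 3 added were Dppa3, Sall1 and Mybl2. Their adjusted p-values were then 0.0156, 0.0242 and 0.0407.

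**Figure D2:**
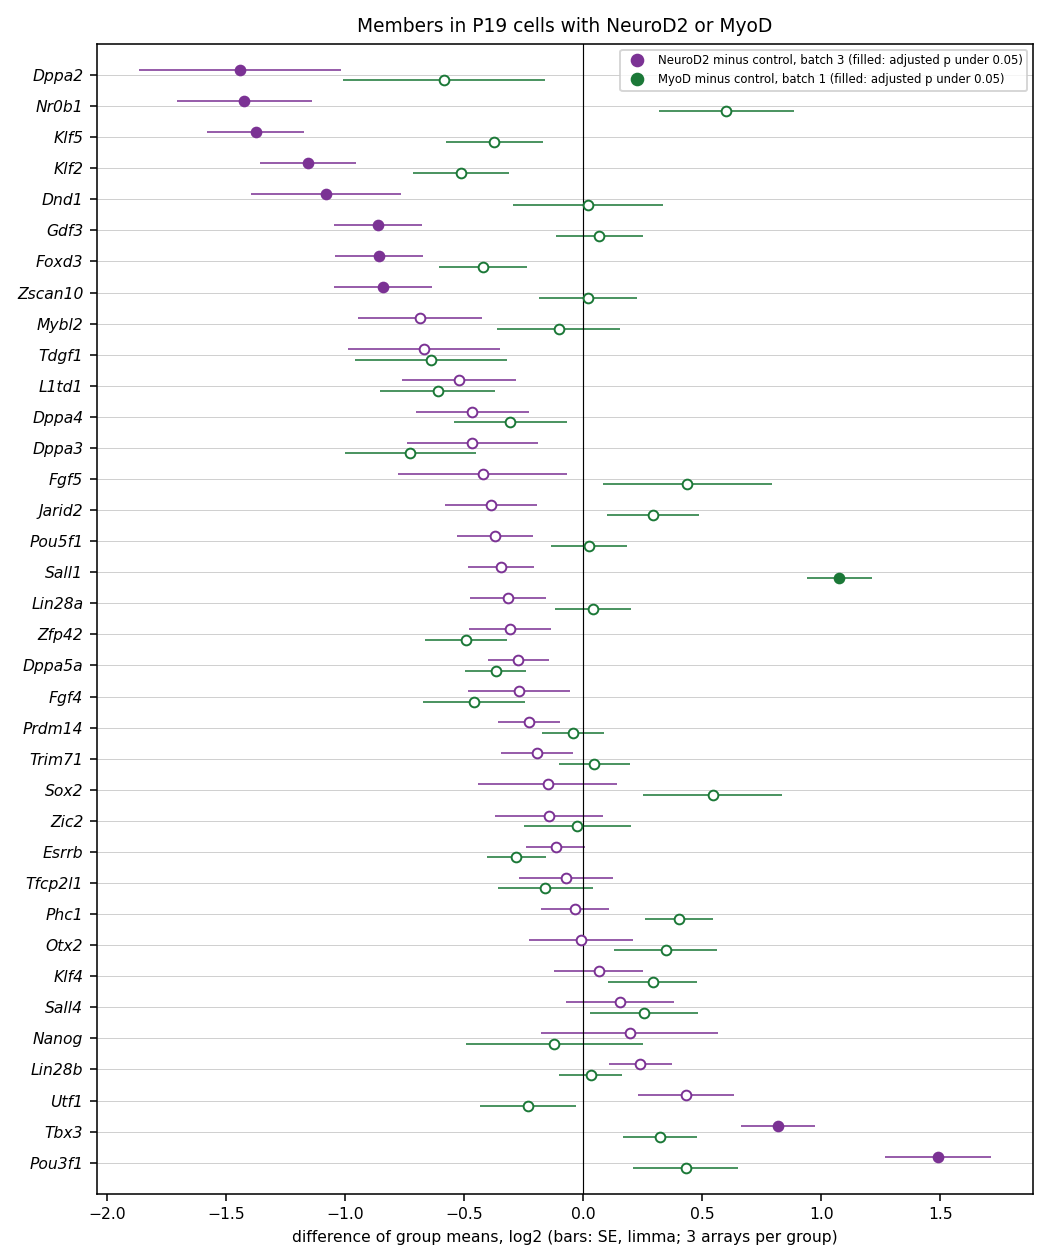
Difference of group means on the log2 scale (horizontal axis) for each member in P19 cells with NeuroD2 (purple, against batch 3 controls) and with MyoD (green, against batch 1 controls), with limma standard errors as bars; filled points have an adjusted p under 0.05. With NeuroD2 there are 10 filled points, 8 on the left of 0 and 2 on the right, and with MyoD Sall1 is the only one.

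MyoD called a single member in P19 cells. Sall1, a spalt zinc finger factor that is expressed in embryonic stem cells and in kidney and limb, was 8.82, 8.21 and 8.57 in the batch 1 controls. With MyoD it was 9.79, 9.41 and 9.62, above every control array. It rose by 1.08 (SE 0.14, 2.11-fold, adjusted p = 5.22e-05), and its other probe set rose by 1.60. In counts, 1 of 36 members rose (2.03% of all genes) and 0 fell (0.676% of all genes) by limma, which is near the background. At an unadjusted p under 0.05, 12 of 36 members passed (4 higher, 8 lower), as did 5484 of all 18193 genes. The members' median difference was -0.003 (all genes 0.04). When only the arrays compared were fitted, the Sall1 call was lost (adjusted p = 0.274); the spread then comes from 6 arrays, among them the one that stood apart. In the same samples 9 of 10 muscle markers rose, with a summed log2 level of 13.16 to 13.18 against 10.82 to 10.93 in controls, and their part in the rise was not tested.

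None of the core factors passed with MyoD, and the range of their controls was widened by replicate 2. Pou5f1 was 13.44, 12.98 and 13.50 in controls and 13.37, 13.34 and 13.29 with MyoD, a difference of 0.02 (SE 0.16). Nanog was 9.24, 7.32 and 9.37 in controls and 8.43, 8.59 and 8.53 with MyoD. Its mean differed by -0.12 (SE 0.37), and 2 of the 3 control arrays lay above all MyoD arrays. Without control replicate 2 the Nanog control mean was 9.30, against 8.52 with MyoD, and Nanog did not pass in that fit. Sox2 was 12.09, 10.76 and 12.02 against 11.96, 12.11 and 12.43, a difference of 0.54 (SE 0.29) that did not pass. In each case control replicate 2 was the outlying value.

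Leaving out that array changed the count of called members more with MyoD than in the other comparisons of a factor in P19 cells. Over all genes the NeuroD2 comparison changed more, from 5.10% to 10.9% higher and from 3.24% to 11.2% lower. With MyoD and without that array, 3 members fell (1.85% of all genes) and 2 rose (2.09%). Klf5 was 8.71 and 8.87 in the remaining controls and 8.14, 8.05 and 8.04 with MyoD, and fell by 0.71 (adjusted p = 0.00445). L1td1, an RNA-binding protein derived from a retrotransposon, was 11.75 and 11.86 against 10.88, 10.88 and 11.03, and fell by 0.87 (adjusted p = 0.0379). Dppa4 fell by 0.67 (adjusted p = 0.049) and Pou3f1 rose by 0.71 (adjusted p = 0.0498). Sall1 kept its call, with a rise of 0.91. With control replicate 1 or replicate 3 left out in place of replicate 2, the counts were 8 and 9 members.

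**Figure D3:**
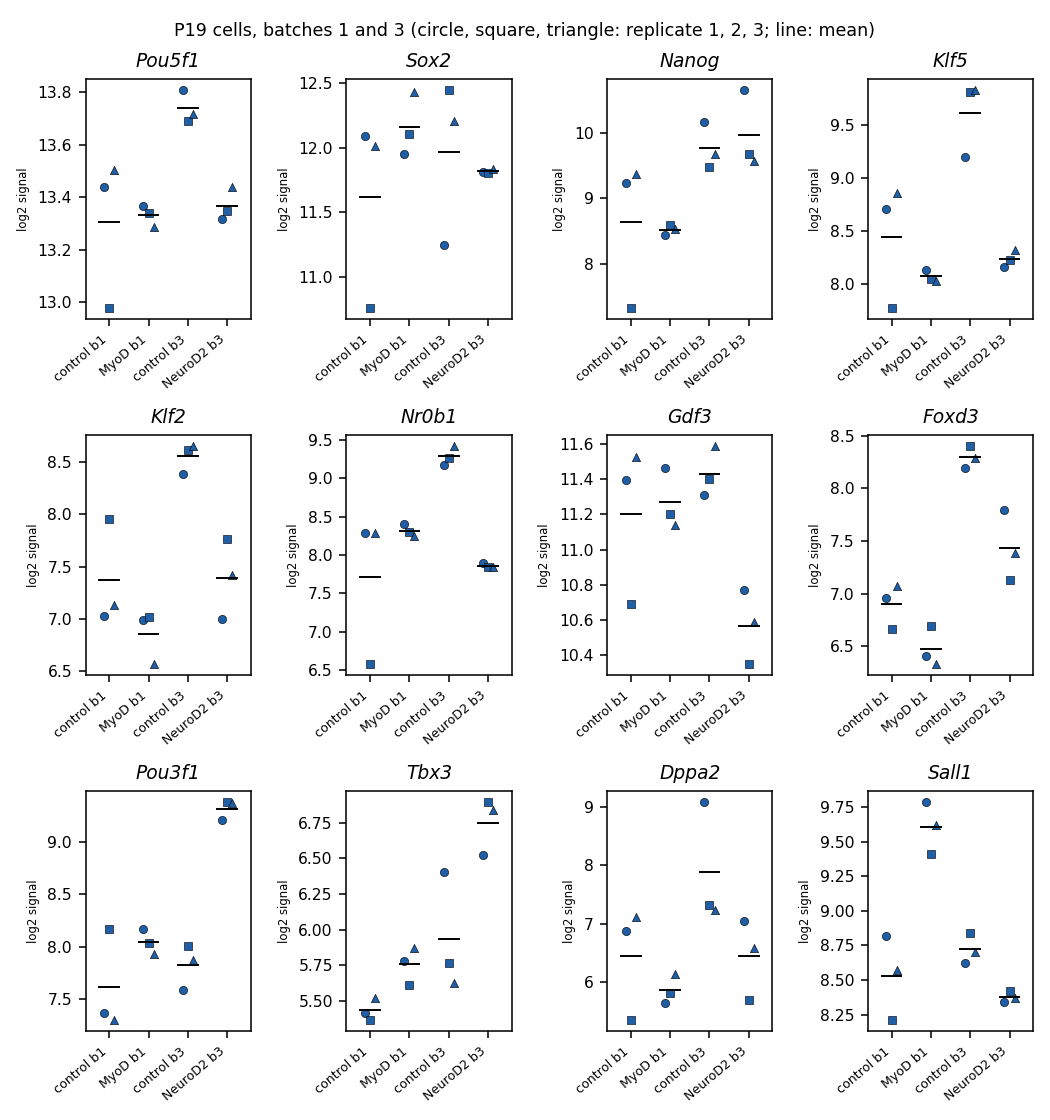
Deposited log2 signal (vertical axis, a separate scale for each gene) of 12 members in the 4 P19 groups, with a circle, square and triangle for replicates 1, 2 and 3 and a line at each mean; b1 and b3 are batches 1 and 3. The square of the batch 1 controls is the array that stood apart, at 7.32 for Nanog and 6.58 for Nr0b1 where its 2 fellow controls lie above 8.2, and the batch 3 controls of Nr0b1, Klf2 and Foxd3 lie above every batch 1 control.

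The effects of the factors were also compared with each other, as the NeuroD2 difference in batch 3 minus the MyoD difference in batch 1. For 4 members the NeuroD2 effect was lower (2.60% of all genes), and for 0 it was higher (2.93% of all genes) by limma. At an unadjusted p under 0.05, 12 of 36 members passed (3 higher, 9 lower), as did 3526 of all 18193 genes. Sall1 differed by -1.42 (SE 0.20, adjusted p = 5.74e-05): it rose with MyoD and was slightly below its control with NeuroD2. Nr0b1 differed by -2.02 (SE 0.40, adjusted p = 0.00294), with a fall of 1.43 under NeuroD2 and a difference of 0.60 under MyoD that did not pass. Without the array that stood apart, the Nr0b1 mean of the batch 1 controls was 8.29, against 8.32 with MyoD. Gdf3 differed by -0.93 (adjusted p = 0.0376) and Klf5 by -1.003 (adjusted p = 0.0442). In the fit of 23 arrays the count was 5 lower (4.52% of all genes) and 0 higher (6.45%), and Klf2 was the addition, with a difference of -0.94. The Klf5 call was lost under 22 of 32 alternatives and its sign turned under 1, and the Gdf3 call was lost under 10 of 32. Pou3f1 differed by 1.06 (SE 0.31) between the factors and did not pass, but it did under 7 of 32 alternatives, among them the replicate block (adjusted p = 0.0401).

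The P19 controls of batches 1 and 3 were not alike, and they enter these comparisons. Against batch 1, 9 members were higher in batch 3 controls (10.6% of all genes) and 1 was lower (3.48% of all genes). The share of all called genes that were higher was 75.4%, and 49.4% after a second quantile normalization. Foxd3 was 6.96, 6.66 and 7.08 in batch 1 and 8.20, 8.40 and 8.29 in batch 3, higher by 1.40 (adjusted p = 5.86e-05). Nr0b1 was 8.29, 6.58 and 8.29 against 9.18, 9.27 and 9.42, higher by 1.57 (adjusted p = 0.00118). Klf2 and Klf5 were higher by 1.18 and 1.17, and Phc1 by 0.85, with no overlap of groups. Nanog, Klf4, Tbx3 and Dppa2 were the other 4 that were higher, and Esrrb was lower, with a difference of -0.39. These batch differences depend on the probe set. Of 10 other probe sets of the called members, 1 was called in the same direction, 1 in the opposite one and 8 were not called. With probe sets that can match several transcripts left out, Klf5 differed by -0.35. In the fit of 23 arrays, 5 members were higher (8.29% of all genes) and 0 lower (9.14%): Klf2, Klf5, Nr0b1, Foxd3 and Phc1.

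Klf2, Klf5, Nr0b1, Foxd3 and Dppa2, which fell with NeuroD2 against batch 3 controls, are thus members whose batch 3 controls were also the highest P19 group. The NeuroD2 comparison and the comparison of batches share the batch 3 controls, and their values are set side by side only. Against the batch 1 controls, the NeuroD2 arrays differed by 0.02 for Klf2, 0.14 for Nr0b1, -0.21 for Klf5 and -0.005 for Dppa2, and Foxd3 was higher by 0.54. Batch and control group cannot be told apart in such values. Pou3f1, Tbx3 and Gdf3 were called in the same direction against either set of controls.

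In fibroblasts, where most of the network was weak, the calls with either factor were on members of the Klf family. With MyoD, Klf5 was 11.60, 11.55 and 11.55, against 7.36, 7.41 and 7.47 in the batch 1 MEF controls. It rose by 4.15 (SE 0.20, 17.8-fold, adjusted p = 9.27e-13), to a level above that of every P19 array. A second Klf5 probe set rose by 1.22 and the last of its probe sets differed by 0.03 and did not pass. Klf2 was 8.92, 8.90 and 9.02 in controls and 8.30, 7.97 and 8.11 with MyoD, and fell by 0.82 (adjusted p = 0.00386). Klf4 was 11.26, 11.37 and 11.38 against 10.71, 10.85 and 10.85, and fell by 0.53 (adjusted p = 0.0394). Its other probe set fell by 0.56.

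These were the calls among the 36 members with MyoD in MEFs, 1 higher (10.8% of all genes) and 2 lower (14.5% of all genes), so fewer members than the background were called. In the fit of 23 arrays, 1 rose (18.1%) and 3 fell (22.5%), and Phc1 was added, with a difference of -0.32. The Klf4 call did not hold when any 1 of the 6 arrays compared was left out (adjusted p 0.0661 to 0.127). In these samples the summed log2 level of the 10 muscle markers was 16.65 to 16.72, against 8.79 to 8.88 in controls, and 9 of 12 fibroblast markers fell. Their part in the Klf differences was not tested. Pou5f1, Nanog and Sox2 differed by 0.07, 0.01 and -0.12 and did not pass.

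With NeuroD2 in MEFs, Klf4 and Klf2 fell and no member rose. Klf4 was 11.16, 11.13 and 11.01 in the batch 2 controls and 9.18, 8.98 and 9.05 in MEFs labelled NeuroD2. It fell by 2.03 (SE 0.19, 4.08-fold, adjusted p = 6.43e-08), and its other probe set fell by 1.97. Klf2 was 9.29, 9.29 and 9.15 against 8.53, 8.41 and 8.37, and fell by 0.81 (adjusted p = 0.00851). Klf5 was 7.61 ± 0.22 in controls and 7.30 ± 0.08 with NeuroD2 (SD, n = 3 each), a difference of -0.30 that did not pass.

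The count with NeuroD2 in MEFs was 2 lower (5.94% of all genes) and 0 higher (6.41% of all genes) by limma, close to the background for the falls. At an unadjusted p under 0.05, 1 member was higher and 3 were lower, and 3749 of all 18193 genes passed. The fit of 23 arrays gave 4 lower (13.3%) and 1 higher (13.8%): Dppa3 and Dppa5a fell by 0.43 and 0.37, and Jarid2 was higher by 0.55. Jarid2 was 7.73, 7.86 and 7.40 in controls and 8.21, 8.26 and 8.16 with NeuroD2. Neither factor brought a core member of the network up in fibroblasts beyond the spread of the arrays: with NeuroD2 Pou5f1 was 4.63, 4.42 and 4.44, and 4.35, 4.61 and 5.10 in its controls.

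**Figure D4:**
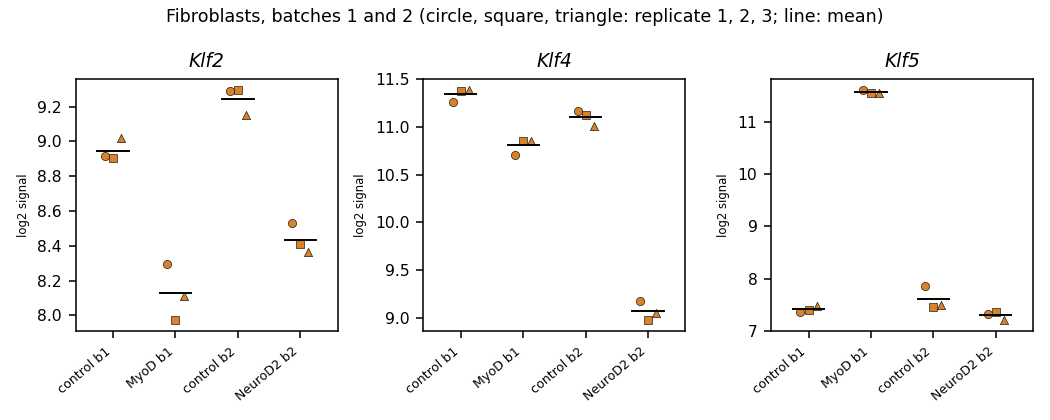
Deposited log2 signal (vertical axis, a separate scale for each gene) of Klf2, Klf4 and Klf5 in the 4 MEF groups, with a circle, square and triangle for replicates 1, 2 and 3 and a line at each mean; b1 and b2 are batches 1 and 2. The 3 MyoD arrays of Klf5 lie at 11.55 to 11.60, and the 3 NeuroD2 arrays of Klf4 at 8.98 to 9.18, outside their controls in both cases.

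The MEF controls of batches 1 and 2 gave no called member, higher (1.16% of all genes) or lower (1.12% of all genes), by limma. At an unadjusted p under 0.05, 2 members differed, 1 in each direction, and 2096 of all 18193 genes passed. Without the array that stood apart, which is no MEF array but enters the shared estimate of the spread, Fgf4 was higher by 0.31 (6.75% of all genes were higher) and Phc1 lower, with a difference of -0.34 (9.58% of all genes were lower).

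Genes around the network were read from pathway lists of 77 measured genes. In P19 cells with NeuroD2, 3 of the 77 rose (5.10% of all genes rose) and 9 fell (3.24%), and in the fit of 23 arrays 9 were higher (10.9%) and 23 lower (11.2%). The rises were Id1 (1.94) and Id2 (2.10), inhibitors of basic helix-loop-helix factors that BMP signals induce, and Gbx2 (1.44), a homeobox factor downstream of LIF and STAT3. The falls included Dnmt3l (-2.13), a cofactor of de novo DNA methylation, Fbxo15 (-1.88), a classic reporter of embryonic stem cells, Rarg (-1.21), a retinoic acid receptor, and Il6st (-0.80), the gp130 receptor subunit of LIF.

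With MyoD in P19 cells, 4 of the 77 rose (2.03% of all genes) and 4 fell (0.676%), against 5 higher (2.09%) and 8 lower (1.85%) in the fit of 23 arrays. Id2 rose by 1.19 and Id1 by 0.66, while Bmp4 fell by 1.495 and Sp5, a target of Wnt signals, by 1.19. None of the 9 genes of the FGF and ERK list passed in P19 cells with either factor by limma. In fibroblasts, Id1 and Id2 rose with MyoD by 1.89 and 2.66 and with NeuroD2 by 2.02 and 2.29. The LIF and STAT3 target Socs3 fell by 1.00 with MyoD, and Dusp6, a feedback phosphatase of ERK, fell by 2.63 with NeuroD2. Bmp4 rose by 4.10 in MEFs labelled NeuroD2. These fibroblast values are single examples from the lists. Over all genes in MEFs, 10.8% rose and 14.5% fell with MyoD, and 6.41% rose and 5.94% fell with NeuroD2.

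Of the 36 members, 17 had more than 1 probe set. Over the members called in the NeuroD2 comparison in P19 cells, 9 other probe sets were present: 3 were called in the same direction, 0 in the opposite one and 6 were not called. Between MEF and P19 controls there were 24 others: 15 called in the same direction, 0 in the opposite one and 9 not called. With probe sets that can match several transcripts left out, Dppa2 and Esrrb lost that call (limma adjusted p = 0.214 and 0.132). Probe sets that were not used also gave calls where the one used did not: with NeuroD2 in P19 cells, others fell for Lin28a (-0.80), Mybl2 (-1.05) and Esrrb (-0.50), and with MyoD others rose for Pou3f1 (1.61) and Tbx3 (0.74). Pou5f1, Nanog, Dppa3 and Dppa5a have processed copies elsewhere in the mouse genome, and whether a probe set also reads them was not tested.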

How the data were processed

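RNA of 24 samples was hybridised to Affymetrix mouse arrays, 1 array per sample. The values used are the log2 signals as deposited by the authors. No source used here states how they were summarised and normalized, and the table holds no detection calls. The submitters' processing notes name limma, without a version. Groups, batches and replicate numbers came from the sample titles, because the cell type label of samples with MyoD reads as neuronally differentiated.

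Of 45101 probe sets, 64 controls, 9160 without a symbol and 932 with several were set aside, and 34945 gave 18193 genes, each read from the probe set with the highest mean. limma 3.58.1 (R 4.3.3; lmFit and eBayes) fitted 8 group means to the 24 arrays (16 residual and 3.89 prior degrees of freedom). Tests were two-sided and adjusted by Benjamini-Hochberg over all 18193 genes of a comparison, and "called", "rose" and "fell" mean an adjusted p under 0.05. The code was tested on simulated data. The number of arrays limits the precision. All 36 members are named, whatever their values. The members, lists and motifs were chosen with earlier results of these data known. Replicate numbers were not treated as pairs in the main fit, and whether they mark shared cultures is not known. Correlations of same-numbered deviations ran from -0.19 to 0.34, with all 3 pairs over 0.1 in no comparison. However, 14 of 24 arrays correlated best with an array of their own number in another group. Promoters are from RefSeq (GRCm38.p6), searched with Python 3.11.15. Alternatives were another normalization, shared medians, no dim genes, other choices of probe set, fewer arrays, array weights, a replicate block and the controls of the other batch.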

Additional observations from a re-analysis of the deposited data

Results flagged for a closer look

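Of the 36 members, 4 had effects in P19 cells that differed between the factors by the limma test of the difference itself (NeuroD2 effect minus MyoD effect). The difference was -1.42 for Sall1, -2.02 for Nr0b1, -0.93 for Gdf3 and -1.003 for Klf5. Each factor was measured in its own batch against its own controls. Sall1 kept this call under all 32 alternatives run and Nr0b1 under 31 of 32. Using the controls of the other batch was not among these alternatives. Sall1 means were 8.38 with NeuroD2 and 9.61 with MyoD, against 8.72 and 8.53 in their own controls. Nr0b1 means were 7.86 with NeuroD2 and 8.32 with MyoD, against 9.29 and 7.72 in their own controls.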

How the results depend on the processing

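The alternatives were run for all 36 members. With a replicate block the counts of called members were 1 (MyoD in P19 cells) and 10 (NeuroD2 in P19 cells), as without it, and 32 in place of 33 (MEF against P19 controls), where Prdm14 was lost (adjusted p = 0.0565). Between the factors Klf5 lost its call (adjusted p = 0.0552) and Pou3f1 gained one (0.0401), and Dppa5a gained one with NeuroD2 in MEFs (0.0465). Same-numbered arrays correlated best in 14 of 24 cases.

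Counts of called members changed by over 1.5 times as follows. For MyoD in P19 cells, where 1 was called, a second quantile normalization gave 3 (1 higher, 2 lower) and moved the share of all called genes that were higher from 75.1% to 54.5%; the mean of all probe sets gave 3, only the arrays compared 0, array weights 18 and batch 3 controls 11. Array weights, whose estimate did not reach its convergence tolerance, gave 22 for NeuroD2 in P19 cells, 15 for the difference between the factors, 8 for MyoD and 9 for NeuroD2 in MEFs, and 7 between MEF batches. Only the arrays compared gave 1 for the difference between the factors, 5 for MyoD in MEFs, 0 between P19 batches and 2 between MEF batches, where quantile normalization gave 1. With each array left out in turn, the counts ran from 1 to 9 (MyoD in P19), 8 to 13 (NeuroD2 in P19), 2 to 6 (difference between the factors), 2 to 4 and 2 to 5 (MyoD and NeuroD2 in MEFs), 32 to 34 (MEF against P19), 5 to 16 (P19 batches; 16 without batch 1 control replicate 3) and 0 to 2 (MEF batches).

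Signs turned in these cases. Against the controls of the other batch, MyoD in P19 cells gave -0.97 for Nr0b1 and -0.45 for Phc1, and NeuroD2 gave 0.021 for Klf2, 0.14 for Nr0b1, 0.54 for Foxd3 and 0.82 for Phc1. With probe sets that can match several transcripts left out, Klf5 was 0.11 between the factors and -0.35 between P19 batches. With array weights, Dppa3 was -0.32 between the factors. With the mean of all probe sets, Tbx3 was -0.14 and Fgf4 0.34 between P19 batches. The cause was not tested. Shifting each array to a shared median moved the all-gene median of the difference between the factors by -0.10, and the other medians by less. Of the 10 calls with NeuroD2 in P19 cells, 2 held under all 33 alternatives (Pou3f1 and Gdf3); of the 33 between MEF and P19 controls, 29 did.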
